A study of Mus musculus with 12 samples.

Results

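The classical protein tyrosine phosphatases are enzymes that take phosphate off tyrosine residues of proteins. They were followed here in regulatory and conventional T cells of diabetes-prone and control mice. A gene belonged to the family when its symbol in the array annotation was Ptpn with a number or Ptpr with a letter, and when at least 1 probe set named it alone. This gave 34 genes of 18193 measured, with 86 of the 45037 probe sets tested. Of these genes, 16 carry a non-receptor (Ptpn) and 18 a receptor (Ptpr) symbol. A textbook list of the family holds 38 genes, and Ptpn7, Ptprh, Ptprq and Ptprt were not analysed here. Each gene was read from its brightest probe set, taken by the mean of the 12 arrays. Probe sets differ in how brightly they bind, so levels are compared between samples and never between genes.

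Regulatory T cells (Treg) and conventional T cells (Tconv) were sorted from spleens of NOD and B6.H2g7 mice, and their RNA was measured on 12 Affymetrix arrays, 3 per group. The series asked how the Treg to Tconv ratio of expression compares between the strains. The 4 groups were NOD Treg, NOD Tconv, B6.H2g7 Treg and B6.H2g7 Tconv, all from mice aged 6 weeks, with RNA of 3 mice on each array. The NOD strain is prone to autoimmune diabetes. B6.H2g7 is a congenic B6 strain that carries the NOD haplotype at the MHC, so all groups share the H2g7 haplotype and the strains differ across the rest of the genome. Treg were sorted as CD4+ cells with CD25, Tconv as CD4+ cells without it, and both without CD8a, CD11b, CD69 and B220. The sort was by CD25, and the labels give the share of Foxp3+ cells as 89%, 95% and 95% in the NOD Treg pools and as 94%, 96% and 96% in the B6.H2g7 Treg pools.

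Tyrosine phosphorylation carries the signal of the T cell receptor and of cytokine receptors, and phosphatases set how strong that signal is and how long it lasts. Some of them turn signalling on: CD45 (Ptprc) and Ptpra free Src family kinases from an inhibitory phosphate. Others turn it off, such as Ptpn22, SHP-1 (Ptpn6) and the JAK phosphatases Ptpn2 and Ptpn1. Receptor-type members have an outer part that can bind other proteins or sugar chains, while non-receptor members work in the cytosol or on inner membranes.

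The defining markers followed the labels in all 12 samples. Foxp3, the master regulator of Treg, had log2 intensities of 10.67 to 11.26 in NOD Treg against 5.57 to 6.24 in NOD Tconv, and of 10.69 to 11.22 in B6.H2g7 Treg against 5.58 to 5.83 in B6.H2g7 Tconv. All 5 Treg markers checked were called higher in Treg in each strain, where called means an adjusted p under 0.05 in limma over all probe sets. Of 9 B cell markers 1 was called higher in Treg averaged over strains (Cd79b, by 0.79 log2), and the summed B cell level overlapped between groups, at 9.92 to 10.13 in Treg of both strains and 9.89 to 10.14 in Tconv of both strains. Of 8 T cell markers 1 was called higher (Cd5) and 1 lower (Cd4), with a median change of -0.27, and their summed log2 level was lower in all Treg arrays (14.26 to 14.47) than in all Tconv arrays (14.53 to 14.68). The part of this in the Treg to Tconv results was not tested. No marker of CD8 T cells, NK cells, monocytes, dendritic cells, neutrophils, erythroid cells or stroma was called between Treg and Tconv averaged over strains. Median array intensities ran from 83.9 to 88.6, and arrays of a group correlated with r of 0.983 to 0.9962. The difference between the 3′ and 5′ actin control probe sets, a sign of RNA integrity and amplification length, was lowest on array 1 in both Treg groups, at 3.29 in NOD Treg and 2.66 in B6.H2g7 Treg, against 4.26 to 4.70 on their other arrays. NOD Tconv 1 was also the lowest of its group, at 2.97 against 3.79 and 4.25, while B6.H2g7 Tconv ran from 3.67 to 4.43. In bulk samples, fewer cells of a type and less RNA per cell cannot be told apart.

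Of the 34 phosphatases, 4 were called between Treg and Tconv in the fit as reported, and no difference passed the test for the others. Averaged over the strains, Ptpn13, Ptprs and Ptpn9 were called higher in Treg and Ptpra was called lower, which is 4 of 34 members (11.8%), where 7.5% of all genes were called. In NOD alone 2 members were called, both higher (5.88%, where 4.38% of all genes were called). In B6.H2g7 alone 3 were called, all higher (8.82%, where 4.55% of all genes were called). The median log2 change over the 34 members was 0.04 averaged over strains, -0.01 in NOD and 0.03 in B6.H2g7. The same medians over all genes were -0.01, -0.02 and 0.00. With 34 genes a single gene weighs heavily in such a share, and these shares lie near those of all genes.

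Ptpn13, a very large cytosolic phosphatase with a FERM domain and several PDZ domains that tether it under the membrane, had the largest change of the 34. Its log2 intensity was 8.70, 8.21 and 8.36 in NOD Treg, against 6.69, 6.58 and 6.66 in NOD Tconv. In B6.H2g7 it was 7.90, 7.58 and 7.59 in Treg, against 6.23, 5.81 and 6.25 in Tconv. Every Treg array lay above every Tconv array of both strains. The log2 difference was 1.78 ± 0.15 in NOD (SE, 3 arrays a group, 3.44-fold, adjusted p = 1.48e-05) and 1.59 ± 0.15 in B6.H2g7 (3.01-fold, adjusted p = 3.57e-05). Averaged over strains it was 1.68 ± 0.11 (3.21-fold, adjusted p = 4.41e-07), rank 66 by size among the 812 genes called higher. By array number, Treg exceeded Tconv by 2.01, 1.63 and 1.70 in NOD and by 1.67, 1.77 and 1.33 in B6.H2g7. Ptpn13 has a dimmer second probe set, with a mean log2 level of 5.52, which differed by 0.12 (adjusted p = 0.658). The median of both probe sets differed by 0.90 (adjusted p = 1.53e-07). Array 1 of NOD Treg, NOD Tconv and B6.H2g7 Treg, with the lowest actin difference, also gave the highest Ptpn13 value of its group. With the actin difference as a covariate the averaged change was 1.71, and the call held.

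Ptprs is a receptor phosphatase of the LAR family that binds heparan and chondroitin sulfate chains of proteoglycans. Its log2 intensity was 8.76, 8.56 and 8.52 in NOD Treg, against 7.69, 7.67 and 7.54 in NOD Tconv. In B6.H2g7 the values were 8.59, 8.17 and 8.23 in Treg, against 7.43, 7.42 and 7.36 in Tconv. The Treg arrays lay above all Tconv arrays. Treg exceeded Tconv by 0.98 ± 0.11 log2 in NOD (SE, 1.97-fold, adjusted p = 2.47e-04) and by 0.93 ± 0.11 in B6.H2g7 (1.91-fold, adjusted p = 3.48e-04), and by 0.95 ± 0.08 averaged over strains (1.94-fold, adjusted p = 7.03e-06). This result rests on 1 of its 4 probe sets. The other 3 differed by 0.14, -0.03 and 0.02 averaged over strains, and none was called. When the gene was read as the median of its probe sets, the averaged change was 0.07 (adjusted p = 0.743).

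Ptpn9, also called MEG2, carries a Sec14 lipid-binding domain and sits on secretory vesicles. Its only probe set read 8.42, 8.36 and 8.43 in NOD Treg, against 8.14, 8.0 and 7.98 in NOD Tconv. In B6.H2g7 it read 8.45, 8.49 and 8.82 in Treg, against 8.08, 7.95 and 7.72 in Tconv. Treg and Tconv did not overlap in either strain. Averaged over strains the log2 difference was 0.52 ± 0.08 (SE, 1.43-fold, adjusted p = 0.00162). In B6.H2g7 it was 0.67 ± 0.12 (1.59-fold, adjusted p = 0.00549), and with only the B6.H2g7 arrays in the fit the call was lost (adjusted p = 0.063). With those arrays and the replicate block the change was called (adjusted p = 0.0428). In NOD it was 0.37 with a 95% interval of 0.11 to 0.62 and was not called (adjusted p = 0.171). By array number the NOD differences were 0.28, 0.36 and 0.45, and with only the NOD arrays and the replicate block the change was called (adjusted p = 0.0271). The strains' changes differed by -0.30 with an interval of -0.67 to 0.06, so a difference between the strains was not shown.

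Ptpra, a receptor phosphatase that activates Src family kinases, was the member lower in Treg. Its log2 intensity was 7.21, 7.02 and 6.99 in NOD Treg, against 7.57, 7.47 and 7.49 in NOD Tconv. In B6.H2g7 it was 7.71, 7.42 and 7.50 in Treg, against 7.88, 7.89 and 7.58 in Tconv. The groups did not overlap in NOD, and in B6.H2g7 the highest Treg array passed the lowest Tconv array. Averaged over strains Ptpra fell by 0.34 log2 with an SE of 0.08 (1.26-fold lower, adjusted p = 0.0215). The call did not hold in 7 of 12 fits that left out 1 array each, namely those without NOD Treg 2 or 3, NOD Tconv 1, B6.H2g7 Treg 2 or 3, or B6.H2g7 Tconv 1 or 2 (adjusted p up to 0.0653). Its second probe set differed by -0.01 (adjusted p = 0.983).

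**Figure D1:**
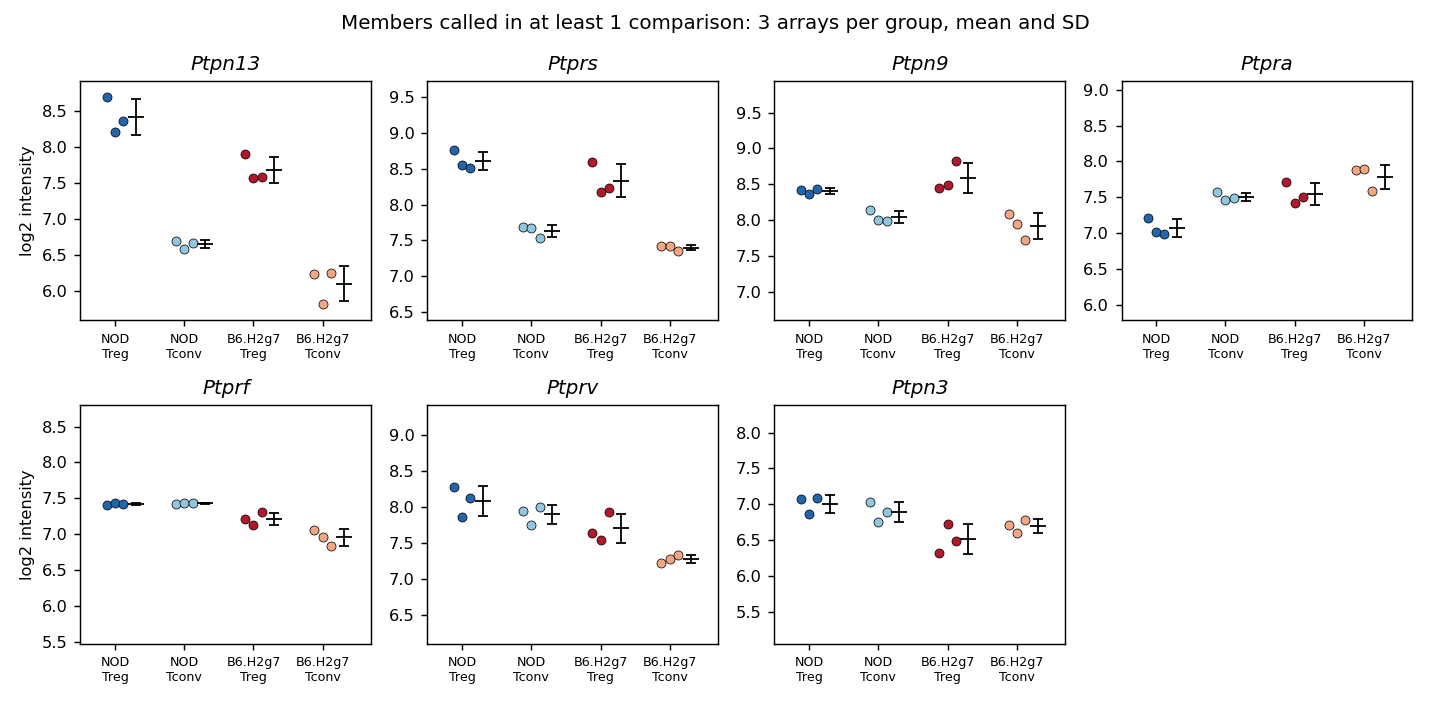
Log2 intensity (y axis) of the 7 members called in any comparison, in NOD Treg, NOD Tconv, B6.H2g7 Treg and B6.H2g7 Tconv (x axis, 3 arrays each). Points are arrays and bars are the mean with the SD. Ptpn13 lies at 8.21 to 8.70 in NOD Treg against 6.58 to 6.69 in NOD Tconv, and at 7.58 to 7.90 in B6.H2g7 Treg against 5.81 to 6.25 in B6.H2g7 Tconv.

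The Treg to Tconv calls within NOD alone changed with how array numbers were treated and with other settings. Arrays of the same number deviated together there, and a fit with a replicate block takes such shared deviations into account. What the numbers share was not tested. With the replicate block, the NOD count became 3 higher and 1 lower. Ptprz1, a receptor phosphatase best known from the nervous system, and Ptpra were added. Ptprz1 read 7.17, 7.48 and 7.31 in NOD Treg against 6.92, 6.99 and 6.82 in NOD Tconv, a log2 difference of 0.41 (adjusted p = 0.0913 without the block and 0.0308 with it). Its groups did not overlap in NOD. Ptpra differed by -0.44 in NOD (adjusted p = 0.0586 without the block and 0.0151 with it). With only the NOD arrays and the block, 4 were higher and 1 lower, Ptpn9 being the further one. Without a block, limma also called Ptpra with only the NOD arrays (adjusted p = 0.0481) and with quantile normalization (0.026). The same held for Ptpra with array weights (0.00984) and the actin covariate (0.0317). Array weights added Ptprz1 (0.0263) and Ptpn9 (0.0304) as well.

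**Figure D2:**
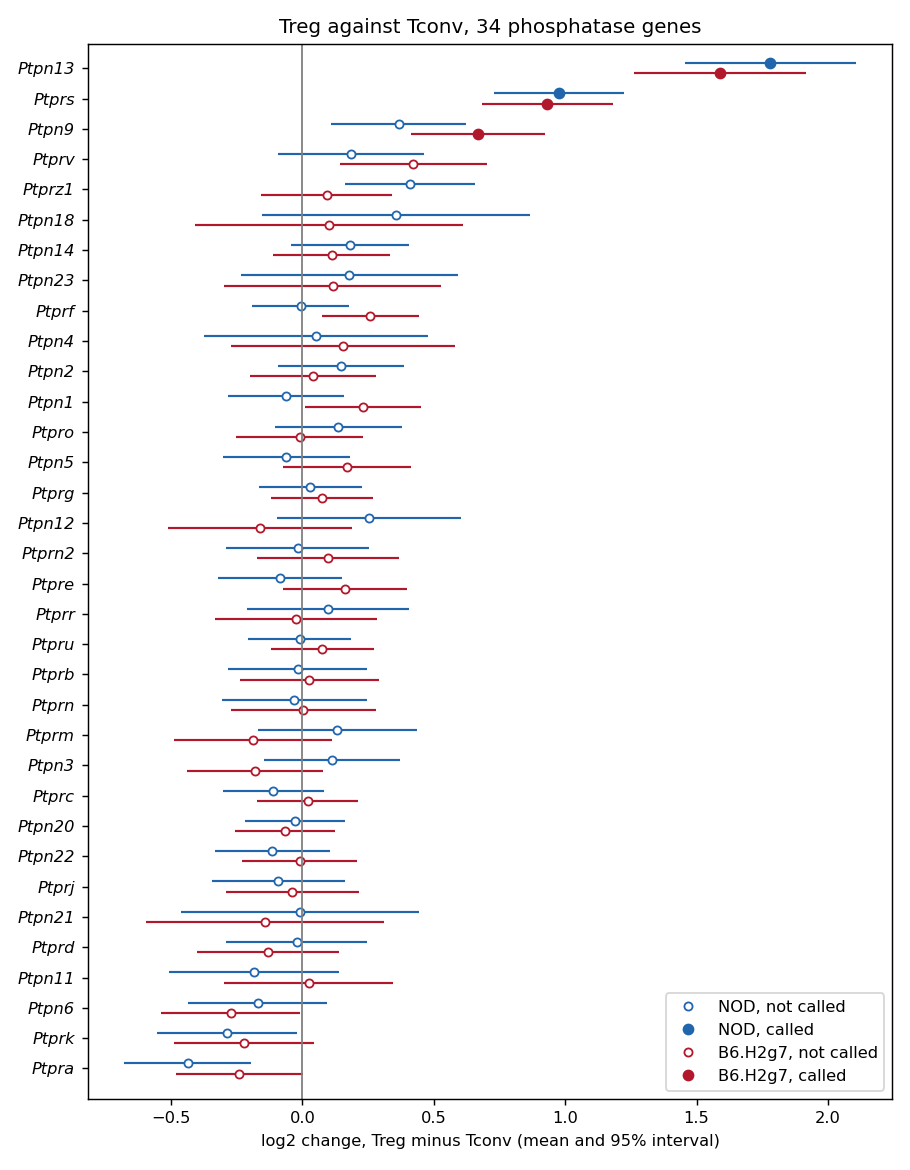
Log2 change of Treg against Tconv (x axis, mean and 95% interval) for the 34 genes (y axis), in NOD and in B6.H2g7. Filled points are called at an adjusted p under 0.05; Ptpn13 and Ptprs stand apart in both strains at 1.78 and 0.98 in NOD and 1.59 and 0.93 in B6.H2g7, and most other intervals include 0.

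Promoter sequences of the 4 members called in the averaged comparison are shown, with the limits given above for the calls of Ptprs and Ptpra. Each is the 250 bases before an annotated start, 5′ to 3′ in the direction of the gene, from RefSeq on GRCm38.p6, and CpG dinucleotides, the bases at which DNA can be methylated, are in capitals.
Ptpn13, chr5:103424942-103425191, plus strand: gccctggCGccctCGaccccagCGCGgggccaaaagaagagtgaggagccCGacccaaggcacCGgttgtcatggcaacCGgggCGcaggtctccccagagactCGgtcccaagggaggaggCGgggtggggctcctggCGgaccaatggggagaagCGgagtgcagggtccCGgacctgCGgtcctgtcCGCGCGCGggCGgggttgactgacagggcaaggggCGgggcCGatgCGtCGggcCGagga
Ptprs, chr17:56462222-56462471, minus strand: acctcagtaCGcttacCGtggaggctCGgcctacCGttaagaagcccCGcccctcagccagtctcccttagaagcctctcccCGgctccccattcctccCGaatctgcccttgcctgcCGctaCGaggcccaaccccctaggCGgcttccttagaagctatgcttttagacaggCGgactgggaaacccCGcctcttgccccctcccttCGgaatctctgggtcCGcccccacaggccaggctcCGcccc
Ptprs, chr17:56476481-56476730, minus strand: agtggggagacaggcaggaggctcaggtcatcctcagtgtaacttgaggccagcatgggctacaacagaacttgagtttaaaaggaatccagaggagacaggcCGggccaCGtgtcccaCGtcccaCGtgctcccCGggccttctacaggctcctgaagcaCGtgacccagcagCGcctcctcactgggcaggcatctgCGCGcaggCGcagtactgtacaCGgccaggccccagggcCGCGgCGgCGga
Ptpn9, chr9:56994718-56994967, plus strand: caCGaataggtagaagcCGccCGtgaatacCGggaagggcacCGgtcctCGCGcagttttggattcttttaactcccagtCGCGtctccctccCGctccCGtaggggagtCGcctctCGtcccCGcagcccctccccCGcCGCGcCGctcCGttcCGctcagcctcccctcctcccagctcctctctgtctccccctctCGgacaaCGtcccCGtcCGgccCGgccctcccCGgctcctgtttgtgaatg
Ptpra, chr2:130450028-130450277, plus strand: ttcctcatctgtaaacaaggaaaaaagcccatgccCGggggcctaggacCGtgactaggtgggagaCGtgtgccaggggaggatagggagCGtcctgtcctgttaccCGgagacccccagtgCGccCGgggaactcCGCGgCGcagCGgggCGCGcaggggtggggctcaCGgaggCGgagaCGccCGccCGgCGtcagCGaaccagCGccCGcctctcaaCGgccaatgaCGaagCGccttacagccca

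All 5 windows are rich in CpG dinucleotides. The Ptpn13 window holds 24, and 12% of all promoters hold at least as many. There are 15 in each Ptprs window (27.3%), 26 in that of Ptpn9 (9.59%) and 25 in that of Ptpra (10.7%). The median was 15 over 42 promoters of 29 members that matched the RefSeq table, and 6 over all 32851 promoters. Motifs of 4 kinds were searched on both strands in the same 250 bases. The forkhead motif TGTTTAC occurred in 4.76% of member promoters and 3.17% of all, and the STAT motif TTCNNNGAA in 9.52% and 7.02%. The ETS motif CCGGAAGT occurred in 0% of member promoters and 2.88% of all, and the AP-1 motif TGANTCA in 2.38% and 6.75%. Of the windows printed, that of Ptpra held 1 match, to the forkhead motif 240 bases before the start, and the windows of Ptpn13, Ptprs and Ptpn9 held none of these letters. No measurement of binding or methylation belongs to these arrays, so the matches describe the sequence alone.

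The best studied phosphatases of T cell signalling were called in none of the 6 comparisons by limma. CD45, the product of Ptprc, is needed to start T cell receptor signalling because it acts on the kinase Lck. Ptprc read 13.65, 13.50 and 13.42 in NOD Treg against 13.71, 13.63 and 13.56 in NOD Tconv, and 13.59, 13.53 and 13.62 in B6.H2g7 Treg against 13.55, 13.64 and 13.49 in B6.H2g7 Tconv. The groups overlapped in both strains, and the averaged log2 change was -0.05 with a 95% interval of -0.18 to 0.09. Ptpn22 works with the kinase Csk to switch off Lck, and its human gene carries a variant tied to autoimmune diabetes. Ptpn22 read 10.63, 10.47 and 10.45 in NOD Treg against 10.65, 10.64 and 10.61 in NOD Tconv, and 10.59, 10.54 and 10.85 in B6.H2g7 Treg against 10.69, 10.77 and 10.55 in B6.H2g7 Tconv. These groups overlapped too, with an averaged change of -0.06 (interval -0.22 to 0.09).

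SHP-1 and SHP-2, encoded by Ptpn6 and Ptpn11, bind inhibitory receptors through paired SH2 domains. Ptpn6 read 11.15, 11.55 and 11.45 in NOD Treg against 11.35, 11.62 and 11.68 in NOD Tconv, and 11.15, 11.33 and 11.10 in B6.H2g7 Treg against 11.50, 11.51 and 11.39 in B6.H2g7 Tconv. The B6.H2g7 groups did not overlap, Treg being the lower, while the NOD groups did. The averaged change was -0.22 (interval -0.41 to -0.04) and was not called over all probe sets (adjusted p = 0.221). A second Ptpn6 probe set gave -0.27 (adjusted p = 0.518). Ptpn11 read 10.77, 10.39 and 10.54 in NOD Treg against 10.94, 10.68 and 10.64 in NOD Tconv, and 10.75, 10.39 and 10.30 in B6.H2g7 Treg against 10.58, 10.57 and 10.23 in B6.H2g7 Tconv. Its groups overlapped in both strains, and the averaged change was -0.08 (interval -0.31 to 0.15).

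Ptpn2 and Ptpn1 are close relatives that dephosphorylate JAK kinases. Ptpn2 read 11.74, 12.03 and 12.08 in NOD Treg against 11.80, 11.77 and 11.84 in NOD Tconv, and 11.80, 11.95 and 11.70 in B6.H2g7 Treg against 11.72, 11.93 and 11.68 in B6.H2g7 Tconv. Treg and Tconv overlapped, with an averaged change of 0.09 (interval -0.07 to 0.26). Ptpn1 read 10.16, 10.18 and 10.32 in NOD Treg against 10.37, 10.24 and 10.25 in NOD Tconv, and 10.20, 10.05 and 10.29 in B6.H2g7 Treg against 10.11, 9.94 and 9.80 in B6.H2g7 Tconv. These overlapped between Treg and Tconv as well, and the averaged change was 0.08 (interval -0.07 to 0.24). In Tconv all NOD arrays of Ptpn1 lay above all B6.H2g7 arrays, a difference of 0.34 that was not called (adjusted p = 0.134). The second Ptpn1 probe set differed there by 0.09 (adjusted p = 0.911). The strains did not overlap in Tconv for Ptpn11 either, at 0.30 higher in NOD, and it was not called (adjusted p = 0.544). Averaged changes beyond 0.41 in either direction lie outside the 95% intervals of all 6 of these genes.

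**Figure D3:**
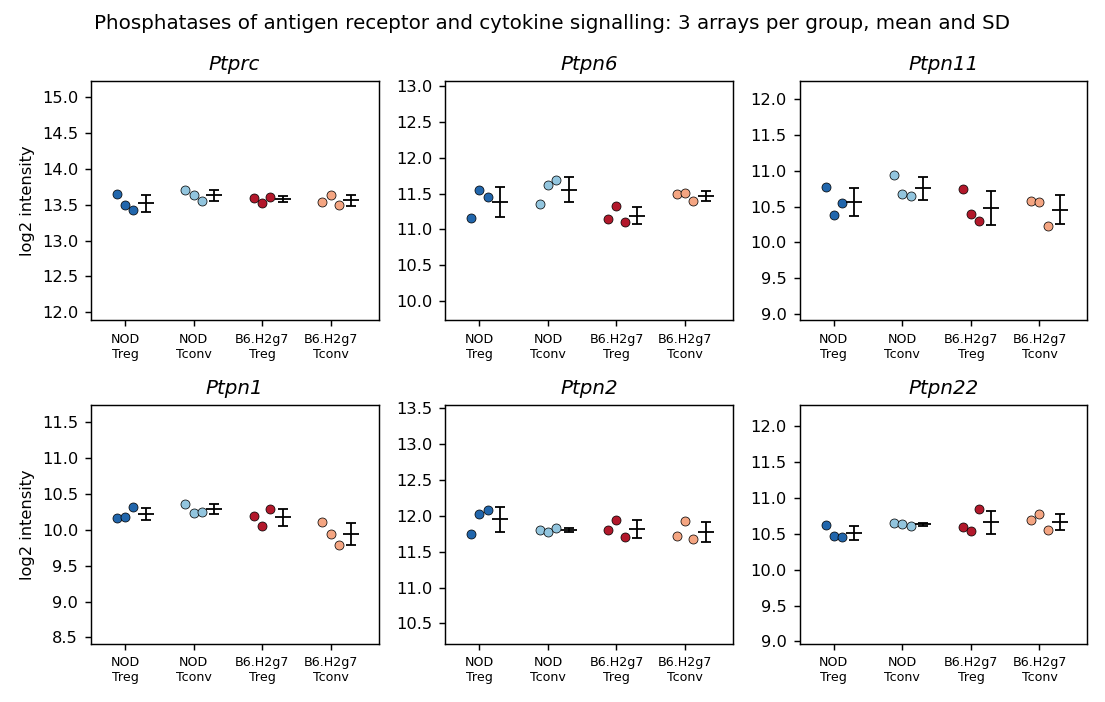
Log2 intensity (y axis) of Ptprc, Ptpn6, Ptpn11, Ptpn1, Ptpn2 and Ptpn22 in NOD Treg, NOD Tconv, B6.H2g7 Treg and B6.H2g7 Tconv (x axis, 3 arrays each). Points are arrays and bars are the mean with the SD. Each panel's axis covers the same number of log2 units, and the 12 arrays of Ptprc span only 13.42 to 13.71.

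The other 21 members were called in no comparison by their brightest probe set in the fits as reported. Their log2 changes averaged over strains ran from -0.25 (Ptprk) to 0.25 (Ptprz1), and the lowest adjusted p was 0.113. Alternatives called some of them. Averaged over strains, Ptprz1 was called with the replicate block (adjusted p = 0.0456) and array weights (0.00544), and Ptpn14 with array weights (0.0436). Of the PEST-type phosphatases, which bind adaptor proteins at the actin skeleton, Ptpn12 read 8.62 to 9.53 over the 12 arrays and Ptpn18 read 8.56 to 10.00. Ptpn18 was the most variable of the 21, with an interval of -0.13 to 0.59 for its averaged change. Ptpre, the closest relative of Ptpra, read 9.08 to 9.48 and changed by 0.04 (interval -0.13 to 0.20). Ptpn23, which sorts receptors in endosomes, read 7.83 to 8.62. The FERM domain members read 7.73 to 8.51 for Ptpn4, 7.18 to 7.56 for Ptpn14 and 6.75 to 7.65 for Ptpn21.

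Further members, many of them receptor types best known from other tissues, were also measured. Ptprd of the LAR family read 6.16 to 6.66, and the cell adhesion members Ptprk, Ptpru and Ptprm read 5.88 to 6.51, 6.13 to 6.51 and 4.98 to 5.65. CD148 (Ptprj) read 6.26 to 6.78, while the podocyte phosphatase Ptpro and the endothelial phosphatase Ptprb read 5.39 to 5.84 and 5.30 to 5.69. Ptprn and Ptprn2, vesicle proteins of endocrine cells that are autoantigens in autoimmune diabetes, read 6.66 to 7.17 and 5.19 to 5.62. The MAP kinase phosphatases Ptpn5 and Ptprr read 6.49 to 6.95 and 4.09 to 4.57, and Ptpn20 and Ptprg read 4.73 to 5.11 and 4.44 to 4.70. Group means of Ptpn20, Ptprg and Ptprr lay under 5.28, the 25th percentile of all probe sets, in every group, and those of Ptprm did so in some, so that changes of these 4 genes are poorly measured. Within groups the median SD of the 34 members was 0.15 log2, as it was over all genes.

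Of the 52 further probe sets of the family, 1 was called higher and 1 lower in Treg averaged over strains, both in genes whose brightest probe set was not called. A probe set of Ptprj with a mean log2 level of 5.34 differed by 0.37 (adjusted p = 0.035), where the brightest one differed by -0.06. A probe set of Ptprk at 5.83 differed by -0.42 (adjusted p = 0.0399), where the brightest one differed by -0.25 (adjusted p = 0.139). The brightest Ptprk probe set was called with the replicate block (adjusted p = 0.0194), array weights (0.0493) or the actin covariate (0.014). Ptprk, a cell adhesion phosphatase, is known from the rat to be needed for CD4 T cell development. Over all 86 probe sets 6 were called (6.98%), where 5.84% of all probe sets were called.

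**Figure D4:**
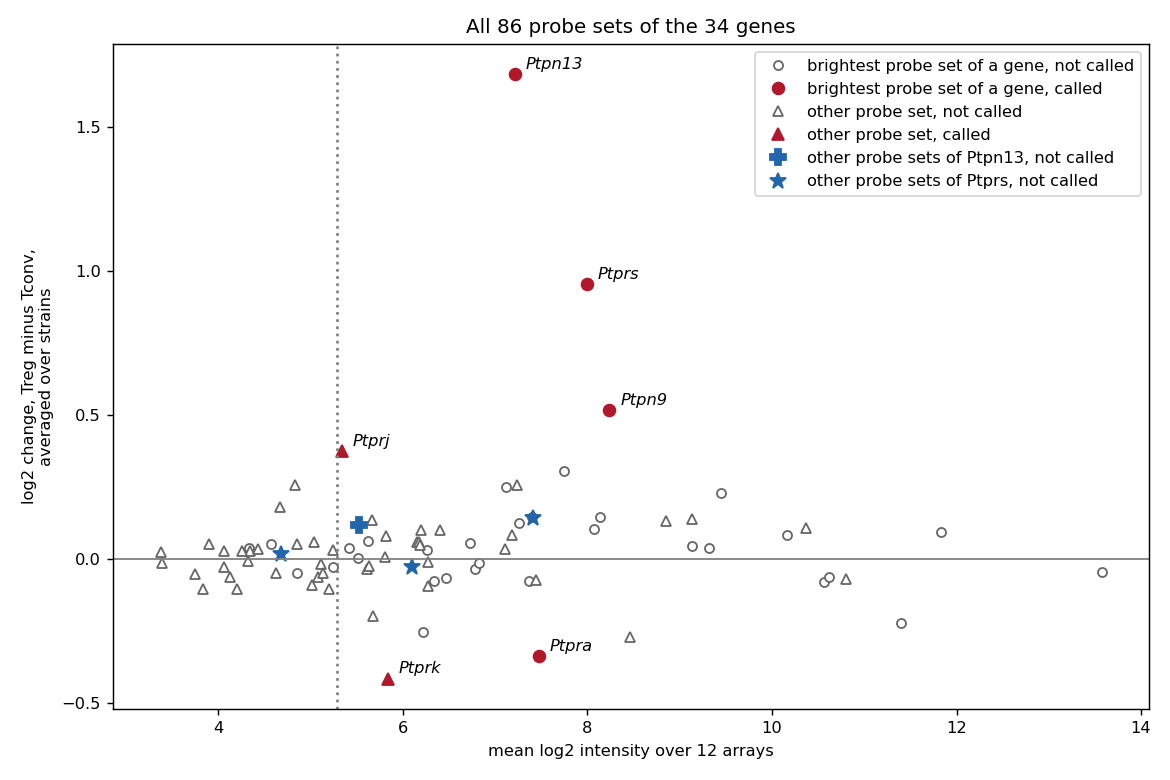
Log2 change of Treg against Tconv averaged over strains (y axis) against the mean log2 intensity over 12 arrays (x axis) for all 86 probe sets. Circles are the brightest probe set of each gene and triangles the others, filled where called; blue symbols are the further probe sets of Ptpn13 and Ptprs, at changes of 0.12 for Ptpn13 and of -0.03 to 0.14 for Ptprs. The dotted line marks 5.28.

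The strain comparison asks whether the Treg to Tconv change of a member differs between NOD and B6.H2g7. By limma 0 of 34 members were called (0.11% of all genes were called), 1 member had an unadjusted p under 0.05, and the count stayed at 0 under every alternative run. For Ptpn13 the NOD change minus the B6.H2g7 change was 0.19 log2 with a 95% interval of -0.27 to 0.65, and for Ptprs 0.05 with an interval of -0.31 to 0.40. The largest difference was that of Ptpn12, 0.42 with an interval of -0.08 to 0.91. The Ptpn12 difference is within the error of 3 arrays a group. The member with an unadjusted p under 0.05 was Ptprf, at -0.27 with an interval of -0.53 to -0.01 (adjusted p = 0.962). Its Treg to Tconv change was 0.26 in B6.H2g7, without overlap but not called (adjusted p = 0.171), and -0.01 in NOD.

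Levels of 5 members were called between the strains in Treg or in Tconv, and the test above called no difference between the cell types. In Treg, NOD against B6.H2g7, 2 members were called higher (Ptpn13 and Ptpn3) and 1 lower (Ptpra), 3 of 34 (8.82%, where 3.33% of all genes were called). In Tconv 2 were called, Ptprf and Ptprv, both higher in NOD (5.88%, where 3.05% of all genes were called). Each of these pairs of groups also enters the Treg to Tconv comparisons, so the same arrays serve both. In the same Treg arrays the summed NK cell markers lay at 9.55 to 9.62 in NOD and 9.16 to 9.45 in B6.H2g7, with Nkg7 called of 6 markers (0.65 higher, adjusted p = 0.033). Only 3 of the 6 NK cell markers, Nkg7 included, were higher in NOD Treg, and their median change was -0.004. The summed CD8 T cell markers lay at 7.65 to 7.73 in NOD Treg and 7.96 to 8.03 in B6.H2g7 Treg, with 0 of 2 called by limma. Their part in the phosphatase results was not tested. With only the Treg arrays in the fit, all 3 Treg calls were lost, at adjusted p = 0.0596 for Ptpn13, 0.115 for Ptpra and 0.147 for Ptpn3. With those arrays and the replicate block, Ptpn13 (adjusted p = 0.00265) and Ptpra (0.023) were called and Ptpn3 was not (0.0816).

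Among Treg, Ptpn13 was 0.74 ± 0.15 log2 higher in NOD than in B6.H2g7 (SE, 1.67-fold, adjusted p = 0.0153), with no overlap between the arrays given above. Its second probe set differed by 0.08 (adjusted p = 0.949), and the median of both by 0.41 (adjusted p = 0.00862). In Tconv the difference was 0.55 ± 0.15 and was not called (adjusted p = 0.0903), although all NOD arrays lay above all B6.H2g7 arrays there too. The Tconv difference was called with the replicate block (adjusted p = 0.00805), with the compared arrays and the block (0.0263), with quantile normalization (0.0432), with array weights (0.00532) and with the actin covariate (0.0417). The call in Treg was lost without NOD Treg 1 (adjusted p = 0.0619), B6.H2g7 Treg 2 (0.0681) or B6.H2g7 Treg 3 (0.0671). Ptpra was 0.47 log2 lower in NOD Treg than in B6.H2g7 Treg (1.39-fold lower, adjusted p = 0.0376), again without overlap, and differed by -0.27 in Tconv (adjusted p = 0.366). Its call in Treg was lost in 7 of 12 fits that left out 1 array, those without any 1 of the NOD Tconv arrays, NOD Treg 2 or 3, or B6.H2g7 Treg 1 or 3 (adjusted p up to 0.166). It was also lost without the 4 arrays numbered 1 (adjusted p = 0.136). The second probe set of Ptpra differed by 0.03 in Treg, and the median of both by -0.22 (adjusted p = 0.418).

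Ptpn3, a membrane-skeleton phosphatase with a FERM and a PDZ domain, has 1 probe set. It read 7.08, 6.86 and 7.08 in NOD Treg against 6.33, 6.73 and 6.49 in B6.H2g7 Treg, and 7.04, 6.76 and 6.90 in NOD Tconv against 6.71, 6.59 and 6.78 in B6.H2g7 Tconv. The strains did not overlap in Treg and overlapped in Tconv. The log2 difference in Treg was 0.49 ± 0.12 (SE, 1.41-fold, adjusted p = 0.0421). It was lost in 8 of 12 fits that left out 1 array, those without NOD Treg 1 or 3, NOD Tconv 2 or 3, B6.H2g7 Treg 1 or 3, or B6.H2g7 Tconv 1 or 2 (adjusted p up to 0.172). It was also lost with array weights (adjusted p = 0.0759) and without the 4 arrays numbered 1 (0.364).

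Ptprf is LAR, the receptor phosphatase that gave its subfamily its name. It read 7.42, 7.44 and 7.43 in NOD Tconv against 7.06, 6.96 and 6.84 in B6.H2g7 Tconv, and 7.40, 7.44 and 7.43 in NOD Treg against 7.21, 7.13 and 7.30 in B6.H2g7 Treg. The 6 NOD arrays of Ptprf lay above the 6 B6.H2g7 arrays, and the lowest were those of B6.H2g7 Tconv. NOD exceeded B6.H2g7 by 0.48 ± 0.08 log2 in Tconv (SE, 1.39-fold, adjusted p = 0.00626) and by 0.21 in Treg (adjusted p = 0.356). The other probe sets of Ptprf differed by 0.16 (adjusted p = 0.784) and 0.27 (adjusted p = 0.307) in Tconv. Read as the median of its probe sets, Ptprf differed by 0.23 (adjusted p = 0.484).

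Ptprv, the osteotesticular phosphatase known from bone and testis, read 7.95, 7.75 and 8.01 in NOD Tconv against 7.22, 7.28 and 7.34 in B6.H2g7 Tconv. In Treg it read 8.28, 7.86 and 8.12 in NOD against 7.64, 7.54 and 7.93 in B6.H2g7. The Tconv arrays of the strains did not overlap, and the Treg arrays did. The log2 difference in Tconv was 0.62 ± 0.13 (SE, 1.54-fold, adjusted p = 0.0176), and in Treg 0.39 ± 0.13 (adjusted p = 0.195). Without the 4 arrays numbered 1 the Tconv call was lost (adjusted p = 0.136), and it was also lost without NOD Tconv 1 or 3 or B6.H2g7 Tconv 1 or 2 (adjusted p up to 0.0876). Between Treg and Tconv, Ptprv differed by 0.30 averaged over strains (interval 0.11 to 0.50), not called (adjusted p = 0.0791). That change was called with the replicate block (adjusted p = 0.0203), array weights (0.044), the actin covariate (0.0447) or NOD Treg 2 left out (0.0321). In B6.H2g7 it was 0.42 without overlap (adjusted p = 0.127, and 0.0341 with the block), and in NOD 0.19 with overlap (0.744).

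Ptpn18 had the widest gap between the strains in Tconv, by size, and was not called by its brightest probe set. It read 8.56, 9.02 and 9.44 in NOD Tconv against 9.76, 9.48 and 9.76 in B6.H2g7 Tconv, a log2 difference of -0.66 (adjusted p = 0.25). The Tconv arrays did not overlap, and the lowest was NOD Tconv 1, which also had the lowest actin difference of its group. The Tconv difference was called with the replicate block (adjusted p = 0.0244) and, at -0.53, with the actin covariate (adjusted p = 0.00982). In Treg the difference was -0.41 (adjusted p = 0.665), and by array number -0.49, -0.34 and -0.39. It was called there with the compared arrays and the block (adjusted p = 0.0445) and, at -0.54, with the actin covariate (0.00795), but not with the block over all arrays. Its second probe set differed by -0.47 there and was called (adjusted p = 0.0186).

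**Figure D5:**
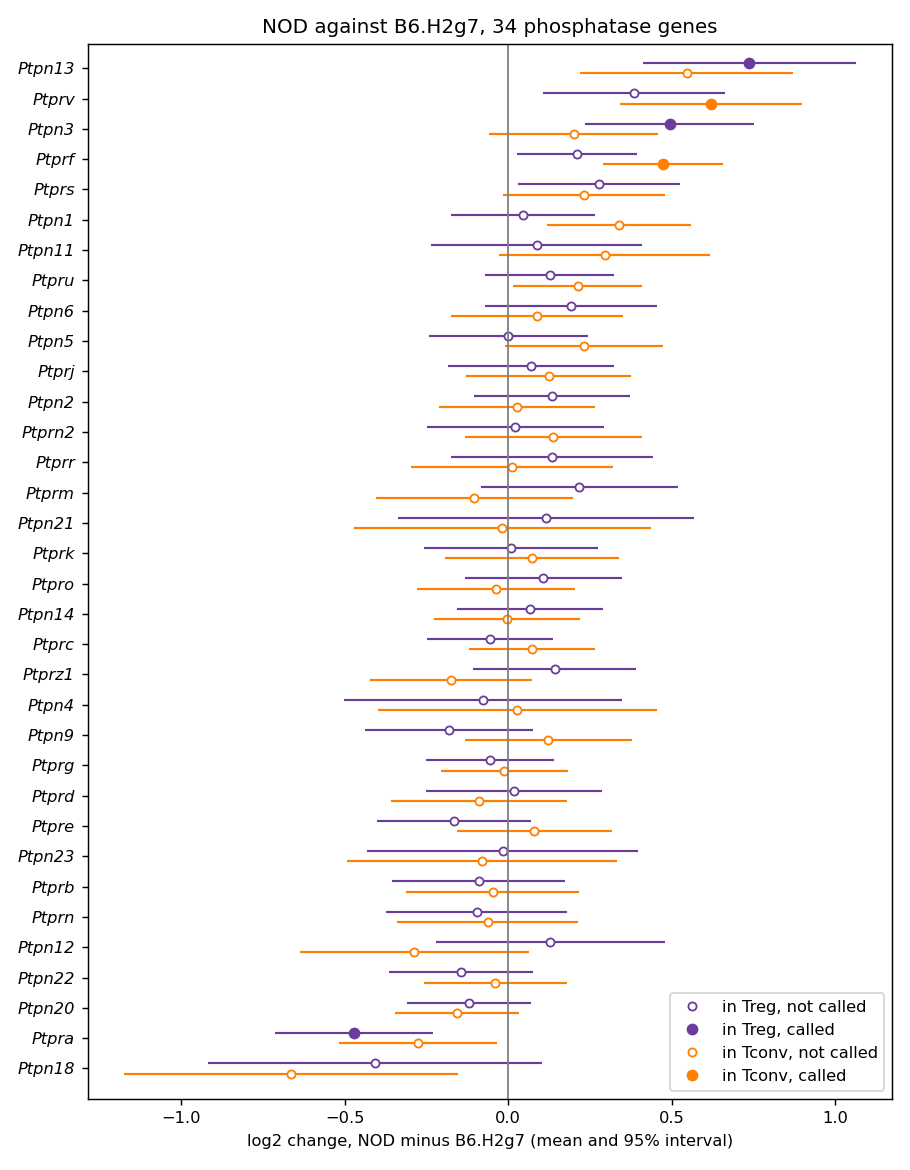
Log2 change of NOD against B6.H2g7 (x axis, mean and 95% interval) in Treg and in Tconv for the 34 genes (y axis). Filled points are called at an adjusted p under 0.05, which are Ptpn13, Ptpn3 and Ptpra in Treg and Ptprv and Ptprf in Tconv.

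Substrates and partners of the phosphatases were counted from 4 lists, in Treg against Tconv averaged over strains, beside 4.46% of all genes called higher, 3.03% called lower and a median change of -0.01. Of 27 substrates and regulators near the T cell receptor, 1 was called higher and 3 lower, with a median change of -0.10. Themis, which binds SHP-1 in developing T cells, was lower by 1.09 log2 (a change of -1.09, adjusted p = 2.46e-07), the adaptor Grap2 differed by -0.56 (adjusted p = 7.65e-04), the Csk anchor Pag1 by -0.60 (adjusted p = 0.00227) and the adaptor Dok1 by 0.32 (adjusted p = 0.0326). Of 15 JAK-STAT and growth signal substrates, 2 were called higher and 0 lower (median 0.11): the kinase Src, a target of Ptpra, by 0.62 (adjusted p = 5.93e-04) and Stat5a, which acts below the IL-2 receptor, by 0.50 (adjusted p = 0.00161).

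Of 19 receptors that recruit SHP-1 or SHP-2, 4 were called higher in Treg and 1 lower, with a median change of 0.02. Klrg1, an inhibitory lectin receptor, differed by 2.07 log2 (adjusted p = 7.76e-07), Cd5 by 0.66 (adjusted p = 1.94e-04) and PD-1 (Pdcd1) by 0.52 (adjusted p = 4.51e-04), while the collagen receptor Lair1 differed by -1.29 (adjusted p = 7.25e-06). Of 20 ligands of receptor phosphatases, 2 were called higher and 1 lower (median 0.05). The proteoglycan Sdc4 differed by 0.56 (adjusted p = 0.00437), the galectin Lgals1 by 0.47 (adjusted p = 0.0179) and the neurotrophin receptor Ntrk3, a partner of Ptprs at synapses, by -1.50 (adjusted p = 1.78e-07).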

How the data were processed

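The authors normalized the arrays with RMA, per the submitters' processing notes, and the deposited values are linear intensities, 1 per probe set and array. The software version is not given in the sources used here. Log2 was taken here with no further normalization, pseudocount or filter. Of 45101 probe sets 64 controls were left out; of the rest 34945 name 1 gene in the platform annotation, 932 several and 9160 none. A gene was read from its brightest probe set, by the mean over arrays.

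Tests used limma 3.58.1 under R 4.3.3 (group means fitted by lmFit over all 12 arrays, 6 comparisons, eBayes, tested on simulated data), with Benjamini-Hochberg adjustment over 45037 probe sets; called means an adjusted p under 0.05. Intervals are 95%. Replicates are independent pools per the series text, and their number limits the precision. Alternatives were other spreads, a replicate block, renormalization, array weights, an actin covariate, other probe set rules and left-out arrays; the actin covariate, the fits without arrays numbered 1, the fits of the compared arrays with a block and the ratio of mean intensities were chosen after seeing the data. Correlations of same-numbered arrays' deviations from group means were 0.6, 0.34 and 0.48 for NOD Treg with NOD Tconv. For NOD Treg with B6.H2g7 Treg they were 0.71, 0.37 and 0.35, so in both the numbers may act as pairs. For B6.H2g7 Treg with Tconv (0.56, -0.08 and 0.55) and NOD with B6.H2g7 Tconv (0.46, -0.04 and 0.25) this was not seen throughout. The fits as reported used no pairs in any comparison, and the replicate block was run only as an alternative. The array file numbers in the labels run in consecutive sets of 4 arrays by replicate number, and the labels do not say what the numbers share.

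Members, lists and named genes were chosen with earlier results of these data known. Named one by one were members called in any comparison and Ptprc, Ptpn1, Ptpn2, Ptpn6, Ptpn11 and Ptpn22, plus up to 4 called genes of each list by smallest p. Ptprz1, Ptpn18, Ptprj, Ptprk and others named were chosen after their values were seen.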

Additional observations from a re-analysis of the deposited data

How the results depend on the processing

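Counts of members called (of 34) moved by over 1.5 times as follows, and the causes were not tested. Given as higher and lower, the counts in the fits as reported were 2 and 0 in NOD Treg against Tconv, 3 and 0 in B6.H2g7, 3 and 1 averaged over strains, 2 and 1 for NOD against B6.H2g7 in Treg, and 2 and 0 in Tconv. With the replicate block, 1 was lower in NOD, 5 were higher and 2 lower averaged over strains, and 1 was lower in Tconv. With only the compared arrays, 1 was lower in NOD, and 0 were higher and 0 lower between strains in Treg. With the compared arrays and the replicate block together, 4 were higher and 1 lower in NOD, and 1 higher and 2 lower between strains in Treg. With array weights, 1 was lower in B6.H2g7, 4 were higher and 1 lower in NOD, 6 higher and 2 lower averaged, 4 higher between strains in Treg and 1 lower in Tconv. With the actin covariate, 2 were lower in NOD, 2 averaged, 2 between strains in Treg and 1 in Tconv. With the median of a gene's probe sets, 1 was higher in NOD, 0 lower averaged, and between strains 0 lower in Treg and 1 higher in Tconv. Quantile normalization gave 1 lower in NOD. Without the arrays numbered 1, 1 was higher and 0 lower between strains in Treg, and 1 was higher in Tconv. Smaller moves were to 2 higher in B6.H2g7 with only the compared arrays (Ptpn9 lost) and with the median of probe sets (Ptprs lost), to 4 there with the block, to 3 in NOD with the block, to 4 averaged and 3 between strains in Treg with the actin covariate, and to 3 in Tconv with the block, with the compared arrays and the block, with quantile normalization, array weights or the actin covariate. With the median of probe sets the 3 higher averaged over strains were Ptpn13, Ptpn9 and Ptprj.

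Leaving out 1 array at a time gave 0 to 1 lower in NOD, 3 to 4 higher and 0 to 1 lower averaged, and between strains 0 to 2 higher and 0 to 1 lower in Treg and 1 to 2 higher in Tconv. The counts higher stayed at 2 in NOD and 3 in B6.H2g7. No called change of a named member changed sign under these settings; some uncalled changes near 0 did. Over all probe sets, array weights called 3460 against 1519 in B6.H2g7 and 4796 against 2632 averaged. Dim probe sets, with no detection calls deposited, limit what Ptpn20, Ptprg, Ptprr and Ptprm can show.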

Other observations

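Ubash3a and Ubash3b encode phosphatases of another fold that restrain T cell receptor signalling, and they were named after their values were seen. Ubash3a averaged 6.73 ± 0.39 log2 (SD, n = 3) in NOD Treg and 9.13 ± 0.08 in B6.H2g7 Treg, and 6.56 ± 0.22 in NOD Tconv and 9.22 ± 0.15 in B6.H2g7 Tconv. NOD differed by -2.40 in Treg (adjusted p = 3.28e-06, limma) and by -2.65 in Tconv (adjusted p = 1.2e-06). Its second probe set differed between the strains by 0.06 in Treg and 0.04 in Tconv, and neither was called. Treg against Tconv, the Ubash3a difference was 0.04 averaged over strains and was not called. Ubash3b averaged 8.55 ± 0.19 in NOD Treg and 9.49 ± 0.22 in B6.H2g7 Treg, a difference of -0.95 (adjusted p = 5.86e-04), and differed by -0.42 in Tconv without being called (adjusted p = 0.129). Its 2 further probe sets differed by -0.58 and -0.48 in Treg, and neither was called.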
